A study of Mus musculus with 15 samples.

Results

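The genes described here make the antigen-presenting machinery of major histocompatibility complex (MHC) class I and the immunoproteasome that feeds it. They were 10 genes named by symbol, namely B2m, H2-K1, H2-D1, H2-T23, Tap1, Tap2, Tapbp, Psmb8, Psmb9 and Psmb10. Each of the 10 matched 1 entry, by mouse Ensembl identifier, of the 65964 entries in the deposited expression table. All 10 reached 1 TPM (a level scaled to transcript length and to the total of its library) in at least 3 of the 15 libraries, so all 10 were tested among 17505 entries that passed this filter.

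An MHC class I molecule is a membrane-bound heavy chain, such as H2-K1 or H2-D1, paired with the soluble light chain beta-2 microglobulin, the product of B2m. It carries a short peptide to the cell surface, where CD8 T cells inspect it. The peptides come mostly from the proteasome. Interferon induces 3 alternative catalytic subunits, encoded by Psmb8, Psmb9 and Psmb10, that take the places of the constitutive subunits encoded by Psmb5, Psmb6 and Psmb7. The transporter made of Tap1 and Tap2 moves the peptides into the endoplasmic reticulum, and tapasin, encoded by Tapbp, bridges the transporter to the waiting heavy chain. In the brain, microglia express class I genes at rest and raise them in response to interferon, whereas most neurons express little.

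RNA was sequenced from brain of C57BL/6 mice, and every library, including those marked untreated, carries the label of a kainic acid model of temporal lobe epilepsy. Kainic acid (KA) is an agonist of kainate-type glutamate receptors that induces seizures in rodents. There were 5 groups of 3 libraries: untreated (CTRL_L), given KA (KA_L and KA_H), and labelled as treated with both KA and APOE (APOE_L and APOE_H). What L and H stand for is not defined, no untreated H group was sampled, and what the APOE treatment consisted of is not stated, nor are the ages of the mice. Whether libraries of the same group are from different mice is not stated, so every p-value refers to the spread among these libraries, and that spread may be technical. TPM keep no sequencing depth, so no counting interval can be given for any value.

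The upstream sequences of the 4 chain genes and of the shared region between Tap1 and Psmb9 are shown because the levels of these genes are compared below and because class I promoters are known for a compact block of elements bound by interferon-regulated factors, nuclear factor kappa B and the Nlrc5 complex. They come from RefSeq (GRCm38.p6), which had a promoter for 9 of the 10 genes, all but Tap2. For each chain gene the 180 bases before the transcription start are given 5′ to 3′ on the gene's strand. The positions are chr2:122147507-122147686 (plus strand) for B2m, chr17:34000348-34000527 (minus strand) for H2-K1, chr17:35262914-35263093 (plus strand) for H2-D1 and chr17:36032702-36032881 (minus strand) for H2-T23. The last line is the 225 bases between the starts of Tap1 and Psmb9, which are transcribed away from each other, at chr17:34187331-34187555 (plus strand, the strand of Tap1). Capitals mark matches, on either strand, to 5 motifs chosen after the sequences were read: GAAANNGAA and GAANNGAAA (spaced interferon response half-sites), GGANTNNCC (kappa B type), TGACG (core of the X2 box) and CCAAT (core of the Y box).
B2m: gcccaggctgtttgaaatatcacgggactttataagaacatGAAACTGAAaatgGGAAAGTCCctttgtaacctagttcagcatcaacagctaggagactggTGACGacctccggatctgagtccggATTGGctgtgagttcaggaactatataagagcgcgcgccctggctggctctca
H2-K1: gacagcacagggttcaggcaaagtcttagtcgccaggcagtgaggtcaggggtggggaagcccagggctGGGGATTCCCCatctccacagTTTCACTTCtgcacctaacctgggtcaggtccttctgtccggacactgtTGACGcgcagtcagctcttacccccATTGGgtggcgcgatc
H2-D1: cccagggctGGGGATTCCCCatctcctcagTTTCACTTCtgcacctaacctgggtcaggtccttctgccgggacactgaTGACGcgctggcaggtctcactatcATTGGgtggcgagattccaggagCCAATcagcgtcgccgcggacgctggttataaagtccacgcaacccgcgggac
H2-T23: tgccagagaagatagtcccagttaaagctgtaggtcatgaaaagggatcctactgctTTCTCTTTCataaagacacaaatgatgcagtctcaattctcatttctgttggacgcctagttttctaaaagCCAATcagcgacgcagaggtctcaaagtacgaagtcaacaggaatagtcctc
Tap1 and Psmb9: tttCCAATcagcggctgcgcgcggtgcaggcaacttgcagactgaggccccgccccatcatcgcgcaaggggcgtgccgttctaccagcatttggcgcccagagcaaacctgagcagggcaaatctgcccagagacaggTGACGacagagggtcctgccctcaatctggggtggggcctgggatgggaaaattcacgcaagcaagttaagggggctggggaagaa

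In the 250 bases before the start, GAAANNGAA was found in B2m and H2-T23 and in 7.16% of 27025 RefSeq promoters, and GAANNGAAA in H2-K1 and H2-D1 and in 6.34%. GGANTNNCC was in 3 of the 9 promoters (B2m, H2-K1 and H2-D1) against 10.6% of all. TGACG was in 5 of the 9 (those 3 plus Tap1 and Psmb9, which share it) against 17.9%, and CCAAT in 7 of the 9 against 34.5%, with Tap1 and Psmb9 again sharing 1 match. Since the motifs were chosen from these sequences, the shares only describe how common each motif is. The upstream sequences of H2-K1 and H2-D1 aligned over 177 columns with 161 identical, or 91.0%. A match describes letters in a window and is not evidence of binding. RefSeq places 8 of the 10 genes on chromosome 17, B2m on chromosome 2 and Psmb10 on chromosome 8.

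The makeup of the libraries bears on every level that follows. All 16 microglia markers (such as P2ry12, Tmem119 and Cx3cr1) were at 1 TPM or more in every library, whereas neuron markers summed to at most 66.5 TPM and astrocyte markers to 42.7 to 331 TPM. The microglia markers summed to 15216 to 55559 TPM, so the neuron and astrocyte markers of the labelled tissue, brain, were low beside them. The 10 choroid plexus markers summed to 33307 to 41425 TPM in KA_H and 38531 to 59134 TPM in APOE_H, against 57.6 to 1281 TPM in KA_L and 126 to 297 TPM in APOE_L; in CTRL_L they were at 140, 39316 and 23979 TPM. Their sum exceeded that of the microglia markers in CTRL_L replicates 2 and 3 and APOE_H replicates 2 and 3. Of these 10 markers, 6 were called higher in KA_H than in KA_L and 10 in APOE_H than in APOE_L. Of all tested entries, 1.23% and 4.70% were called higher in these comparisons. Neutrophil markers summed to 189 to 1324 TPM in the H libraries and to at most 133 TPM in the others. Border macrophage and monocyte markers summed to 24.1 to 187 TPM in CTRL_L, 9.97 to 166 in KA_L, 277 to 682 in KA_H, 114 to 424 in APOE_L and 254 to 664 in APOE_H, and endothelial markers to 3.21 to 884 TPM over all libraries. Averaged over KA and APOE, 3 of 10 tested border macrophage and monocyte markers and 3 of 7 endothelial markers were called higher in H than in L. So were 3 of 16 microglia markers, 2 of 7 tested neutrophil markers and all 10 choroid plexus markers, with none of these called lower. Over all tested entries, 7.72% were called higher in that comparison. The 12 T cell and natural killer cell markers summed to 0 to 336 TPM, and stayed at or below 0.15 TPM in CTRL_L. In such bulk samples fewer cells of a type and less RNA per cell cannot be told apart, and the part of this makeup in the results below was not tested.

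B2m, the light chain, was the most abundant of the 10 genes in every library and ranked between 2 and 19 among all entries. It stood at 6871, 8041 and 4955 TPM in CTRL_L and at 7810, 8625 and 8137 TPM in KA_L. In KA_H it reached 20086, 30146 and 23859 TPM. All 3 KA_H libraries lay above all 6 libraries of CTRL_L and KA_L. In APOE_L it was 16320, 12140 and 25500 TPM, and in APOE_H 13952, 9127 and 12169 TPM. The APOE libraries of both letters therefore lay above every KA_L library, and every APOE_H library lay below every KA_H library.

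The group means (± SD, n = 3) ran from 6622 ± 1558 TPM in CTRL_L through 8191 ± 410 in KA_L, 11749 ± 2439 in APOE_H and 17986 ± 6834 in APOE_L to 24697 ± 5082 in KA_H. CTRL_L and KA_L overlapped, as did APOE_H and APOE_L, and APOE_L and KA_H. On the log2(TPM + 1) scale B2m rose by 1.57 (SE 0.24) from KA_L to KA_H (limma, Benjamini-Hochberg adjusted p = 0.00533). It rose by 1.91 (SE 0.24) from CTRL_L to KA_H (adjusted p = 0.00238, limma). No other of the 10 genes was called in either comparison, so the count was 1 of 10 in each. Over all tested entries, 1.23% were called higher in KA_H than in KA_L and 0.314% in KA_H than in CTRL_L.

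B2m was not called between the APOE and KA groups at either letter. The log2 difference of APOE_L from KA_L was 1.07 (SE 0.24, limma adjusted p = 0.153), and that of APOE_H from KA_H was -1.07 (SE 0.24, limma adjusted p = 0.0588). The difference between these differences, a test of whether the APOE condition acted alike at both letters, was -2.14 (SE 0.34, limma adjusted p = 0.0425), and B2m was 1 of 8 entries called lower (0.0457% of those tested). This call was lost when any 1 of 10 of the 12 KA and APOE libraries was left out (limma adjusted p between 0.0621 and 0.122), and it held without KA_L replicate 2 or APOE_L replicate 2. After quantile normalization the value was -0.99 (limma adjusted p = 0.453). The 2 rises in KA_H kept their call whichever library was left out (adjusted p between 0.00395 and 0.0395), but ended when low entries were not filtered out (0.109 against CTRL_L and 0.107 against KA_L) or only the libraries compared were fitted (0.345 and 0.0774).

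The untreated libraries differed in the choroid plexus transcript Ttr. CTRL_L replicate 1 held 54.1 TPM of Ttr and 6871 TPM of B2m. CTRL_L replicates 2 and 3 held 20666 and 10235 TPM of Ttr, and 8041 and 4955 TPM of B2m. Scaled to the geometric mean of the 16 microglia markers, B2m stood at a ratio of 26.1 to 41.3 in KA_H and 10.7 to 16.1 in KA_L, which did not overlap. The ratio was 3.98 to 14.9 in CTRL_L, 13.9 to 31.7 in APOE_L and 8.56 to 12.6 in APOE_H. Unlike in TPM, both APOE groups then overlapped KA_L. On that scaling, which was added after the data were seen, the log2 difference of KA_H from KA_L was 1.30 and did not pass the test (limma adjusted p = 0.0982).

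**Figure D1:**
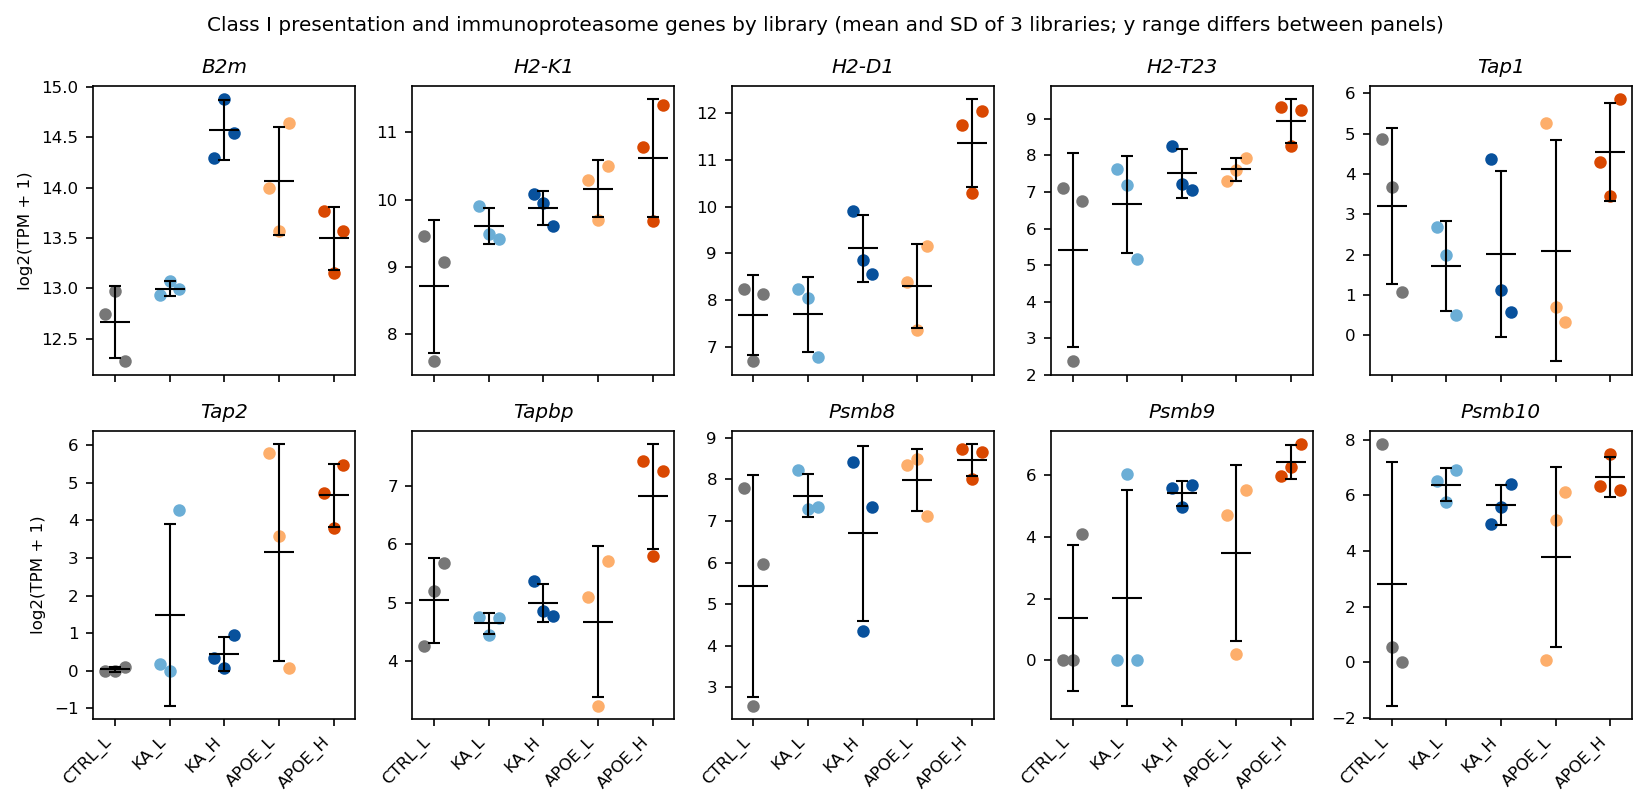
Level of each of the 10 genes as log2(TPM + 1), 1 point per library, with the mean and SD of the 3 libraries of each group as bars; the y range differs between panels. B2m peaks in KA_H (20086 to 30146 TPM), whereas H2-D1 peaks in APOE_H (1242 to 4193 TPM).

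H2-D1, a classical heavy chain that presents peptides to CD8 T cells, had its highest level in APOE_H. It stood at 299, 103 and 278 TPM in CTRL_L, at 303, 265 and 109 TPM in KA_L, and at 963, 463 and 376 TPM in KA_H. In APOE_L it was 335, 165 and 570 TPM, and in APOE_H 3432, 1242 and 4193 TPM. Every APOE_H library exceeded each of the other 12 libraries. H2-D1 rose by 3.05 on the log2 scale (SE 0.62) from APOE_L to APOE_H (limma, adjusted p = 0.0101). Averaged over KA and APOE, it rose by 2.23 (SE 0.44) from L to H (limma, adjusted p = 0.00497). It was the 1 of 10 genes called in each of these comparisons, where 4.70% and 7.72% of all tested entries were called higher. Without APOE_H replicate 3 the first call ended (limma adjusted p = 0.0567, range 0.00837 to 0.0567 over the alternatives), as it did when low entries were not filtered out (0.0527), while the second held under every alternative run.

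H2-D1 was not called in the other comparisons. The log2 difference of APOE_H from KA_H was 2.24 (SE 0.62, limma adjusted p = 0.197) with no overlap, and that of KA_H from KA_L was 1.41 (SE 0.62, limma adjusted p = 0.300), also with no overlap. KA_L and CTRL_L, with means of 226 ± 103 and 227 ± 108 TPM (SD, n = 3), overlapped.

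H2-K1, the other classical heavy chain, spread more evenly over the groups. It stood at 703, 192 and 540 TPM in CTRL_L, at 962, 717 and 681 TPM in KA_L, and at 1084, 987 and 776 TPM in KA_H. In APOE_L it was 1254, 828 and 1454 TPM, and in APOE_H 1766, 818 and 2701 TPM. All KA_H libraries lay above all CTRL_L libraries, while APOE_H overlapped both KA_H and APOE_L. The log2 difference was 1.17 (SE 0.48) for KA_H from CTRL_L, which did not pass the test (limma adjusted p = 0.389), and 0.27 for KA_H from KA_L and 0.46 for APOE_H from APOE_L.

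H2-T23 encodes Qa-1, a nonclassical heavy chain that displays leader peptides of other class I chains to natural killer and T cells. Its levels were 136, 4.13 and 108 TPM in CTRL_L, 198, 145 and 34.6 TPM in KA_L, and 308, 148 and 131 TPM in KA_H. They were 157, 194 and 245 TPM in APOE_L and 638, 303 and 611 TPM in APOE_H. All 3 APOE_H libraries exceeded APOE_L, and the lowest of them (303 TPM) fell just short of the highest KA_H library (308 TPM). The log2 difference of APOE_H from APOE_L was 1.32 (SE 0.99, limma adjusted p = 0.466).

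The balance among the chains differed in APOE_H, as a description made after the values were seen and so given with no test. The ratio of B2m to the summed TPM of H2-K1, H2-D1 and H2-T23 was 2.39, 3.86 and 1.62 in APOE_H. In the other 12 libraries it ran from 5.34 (KA_L replicate 1) to 26.9 (CTRL_L replicate 2). The ratio of H2-D1 to H2-K1 was 1.94, 1.52 and 1.55 in APOE_H, whereas in the other 12 libraries it never exceeded 0.889 (KA_H replicate 1). H2-D1 was thus the more abundant of the pair in all 3 APOE_H libraries and the less abundant in the 12 others. H2-K1, H2-D1 and the H2-Q genes share much of their coding sequence, and how reads matching several of them were assigned is not given in the sources used here, so the split between these genes is uncertain.

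**Figure D2:**
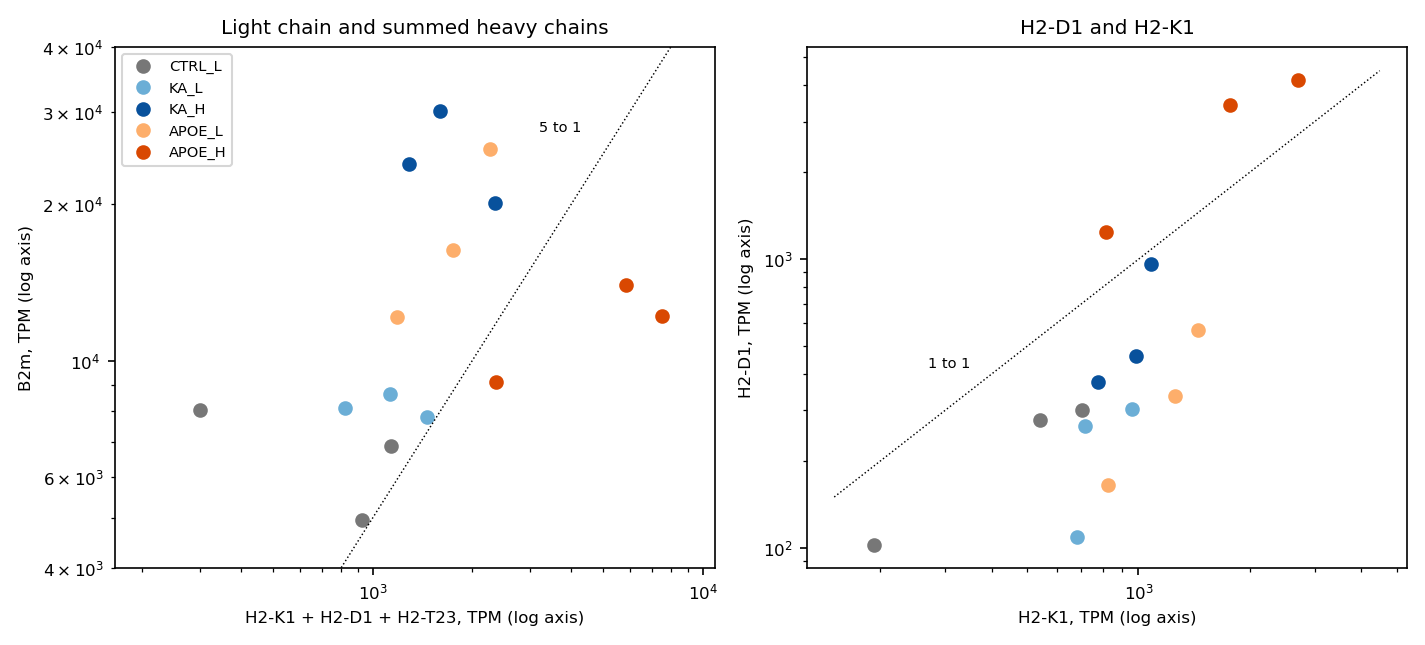
Left, B2m against the summed TPM of the 3 heavy chain genes; right, H2-D1 against H2-K1; each point is a library, both axes are logarithmic, and dotted lines mark equal ratios of 5 to 1 and 1 to 1. The 3 APOE_H libraries lie below the 5 to 1 line on the left (ratios 1.62 to 3.86) and above the 1 to 1 line on the right (1.52 to 1.94), apart from the other 12.

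The peptide transporter genes were low and uneven. Tap1 stood at 28.1, 11.8 and 1.12 TPM in CTRL_L, at 5.41, 2.95 and 0.42 TPM in KA_L, and at 19.7, 1.16 and 0.49 TPM in KA_H. In APOE_L it was 37.2, 0.63 and 0.25 TPM, and in APOE_H 18.5, 10 and 56.9 TPM. Every group but APOE_H held at least 1 library at 1.12 TPM or lower, and Tap1 overlapped in each of the 6 comparisons of groups.

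Tap2, the transporter's partner subunit, was at or near 0 in CTRL_L, being listed at 0 in replicates 1 and 2 and at 0.08 TPM in replicate 3. It was 0.13, 0 and 18.4 TPM in KA_L and 0.26, 0.05 and 0.93 TPM in KA_H. It was 54.9, 10.9 and 0.06 TPM in APOE_L and 25.6, 12.8 and 43.4 TPM in APOE_H. All APOE_H libraries exceeded all KA_H libraries. The log2 difference of APOE_H from KA_H was 4.21 (SE 1.41), the largest of the 10 genes in that comparison, and did not pass the test (limma adjusted p = 0.339). Genes that every cell uses were also listed at 0, among them Psmb5 in a KA_L library. Whether values of 0 are failed estimates was not tested.

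Tapbp, which encodes tapasin, was 18, 35.8 and 50.2 TPM in CTRL_L, 26.1, 20.7 and 25.8 TPM in KA_L, and 40.2, 27.9 and 26.3 TPM in KA_H. It was 33.0, 8.36 and 51.3 TPM in APOE_L and 171, 54.3 and 152 TPM in APOE_H. The 3 APOE_H libraries were above all 12 others. The log2 difference of APOE_H was 2.15 (SE 0.84, limma adjusted p = 0.143) from APOE_L and 1.83 (SE 0.84, limma adjusted p = 0.560) from KA_H, so neither passed the test.

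The chaperones of peptide loading included 2 genes that did. Pdia3 encodes ERp57, a disulfide isomerase of the loading complex. It stood at 40.8, 118 and 43.3 TPM in APOE_L and 1047, 877 and 823 TPM in APOE_H, a log2 difference of 3.91 (SE 0.58, limma adjusted p = 0.00186). In the other groups Pdia3 was at 589, 233 and 496 TPM (CTRL_L), 176, 145 and 51.6 TPM (KA_L) and 325, 369 and 266 TPM (KA_H). Its mean was thus lowest in APOE_L and highest in APOE_H. Calr encodes calreticulin, which holds the heavy chain during loading. It was 85.0, 101 and 90.3 TPM in APOE_L and 562, 404 and 514 TPM in APOE_H, a log2 difference of 2.40 (SE 0.60, limma adjusted p = 0.0266). In CTRL_L, KA_L and KA_H the means of Calr were 129, 102 and 158 TPM, against 92.0 TPM in APOE_L. APOE_L and APOE_H did not overlap for either gene. Pdia3 and Calr were the 2 called of 12 genes of peptide loading and trimming tested, with none called lower, where 4.70% of all tested entries were called higher. Pdia3 kept its call whichever library was left out, whereas Calr lost it without any 1 of the 6 APOE libraries (limma adjusted p between 0.0520 and 0.0918) or when scaled to microglia markers (0.0831). No gene of that list was called in KA_H against KA_L or CTRL_L, or in APOE_H against KA_H, where 3, 1 and 2 of 12 had an unadjusted p under 0.05 (limma), against 14.8%, 10.5% and 8.63% of all tested entries.

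Psmb8 was the most abundant immunoproteasome subunit in 13 of the 15 libraries. It stood at 219, 4.85 and 61.9 TPM in CTRL_L, at 296, 155 and 161 TPM in KA_L, and at 339, 19.4 and 162 TPM in KA_H. In APOE_L it was 324, 360 and 139 TPM, and in APOE_H 422, 258 and 403 TPM. All groups overlapped their neighbours in level, and the low values of CTRL_L replicate 2 and KA_H replicate 2 widened the spread.

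Psmb9, whose start lies head to head with that of Tap1, was listed at 0, 0 and 15.9 TPM in CTRL_L and at 0, 64.8 and 0 TPM in KA_L. It was 47.1, 29.9 and 49.8 TPM in KA_H, 24.8, 0.16 and 44.2 TPM in APOE_L, and 60.6, 75.8 and 127 TPM in APOE_H. Both H groups therefore lay above every CTRL_L library, and APOE_H lay above both KA_H and APOE_L without overlap. Averaged over KA and APOE the log2 difference of H from L was 3.16 (SE 1.18) and did not pass the test (limma adjusted p = 0.101). It did pass when KA_L replicate 2, the 1 KA_L library above 0, was left out (4.17, limma adjusted p = 0.0199).

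Psmb10, the third subunit, was 231, 0.48 and 0 TPM in CTRL_L, 89.6, 52.7 and 121 TPM in KA_L, and 30.8, 47.1 and 84.8 TPM in KA_H. It was 0.06, 34.1 and 68.6 TPM in APOE_L and 79.5, 178 and 71.7 TPM in APOE_H. APOE_H lay above APOE_L without overlap, with a log2 difference of 2.89 (SE 1.72, limma adjusted p = 0.348). KA_L exceeded the lower pair of CTRL_L libraries, and its log2 difference from CTRL_L of 3.58 (SE 1.72, limma adjusted p = 0.457) passed the test only without CTRL_L replicate 1 (6.11, limma adjusted p = 0.0439).

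Summed, the 3 immunoproteasome subunits reached 512 to 602 TPM in APOE_H, above each of the other 12 libraries (5.33 to 451 TPM). The 3 constitutive subunits also stood highest there on average, at 595 to 790 TPM, so that the immunoproteasome's share of the 6 subunits was 48.6%, 39.3% and 43.9% in APOE_H. It was 63.3%, 63.0% and 67.4% in APOE_L, 45.2%, 23.7% and 39.4% in KA_H, and 60.6%, 71.5% and 37.8% in KA_L. In CTRL_L it was 42.6%, 2.28% and 17.5%. The share in APOE_L exceeded that in APOE_H and KA_H without overlap, although the sum of the 3 genes did not. These sums and shares were chosen after the values were seen and carry no test.

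Of the constitutive subunits, Psmb5 was called. It encodes the chymotrypsin-like subunit that the Psmb8 product replaces. It stood at 302, 16.2 and 54.4 TPM in CTRL_L and was listed at 0, 1.74 and 0.12 TPM in KA_L. It was 123, 58.1 and 130 TPM in KA_H, 56.4, 87.7 and 89.0 TPM in APOE_L, and 213, 349 and 354 TPM in APOE_H. KA_L lay below all other groups. Psmb5 fell by 5.51 on the log2 scale (SE 0.93) from CTRL_L to KA_L (limma adjusted p = 0.0139). It was higher by 6.09 (SE 0.93) in KA_H than in KA_L (limma adjusted p = 0.00538) and by 5.73 (SE 0.93) in APOE_L than in KA_L (limma adjusted p = 0.0374). Each of these calls ended when only the libraries compared were fitted (limma adjusted p = 0.645, 0.0906 and 0.717). The first 2 held whichever library was left out. The third ended without KA_L replicate 1 or any APOE_L library (limma adjusted p between 0.0596 and 0.0745), and with no filter on low values (0.0545). In H against L averaged over KA and APOE, Psmb5 was called higher whichever library was left out (log2 difference 3.88 to 4.25, limma adjusted p between 0.00155 and 0.00624). Of all tested entries, 0.571% were called in KA_L against CTRL_L and 0.0457% in APOE_L against KA_L. The shares called higher were 1.23% in KA_H against KA_L and 7.72% in H against L averaged. Whether the value of 0 is a failed estimate was not tested, so the size of these differences is uncertain.

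Psmb6 and Psmb7 were not called between any groups of 3 libraries. Psmb6, replaced by the Psmb9 product, was 59.1, 98.3 and 1.76 TPM in APOE_L and 327, 371 and 360 TPM in APOE_H, a log2 difference of 3.80 (SE 1.14, limma adjusted p = 0.0576) with no overlap. Averaged over KA and APOE, Psmb6 was higher by 2.63 in H than in L (limma adjusted p = 0.0465), a call that ended without any 1 of 9 libraries, that is KA_L replicate 1 or 2, APOE_L replicate 3, or any KA_H or APOE_H library. Psmb7, replaced by the Psmb10 product, was 86.2, 45.5 and 31.0 TPM in APOE_L and 55.5, 70.0 and 57.2 TPM in APOE_H, a log2 difference of 0.28 (SE 1.16).

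**Figure D3:**
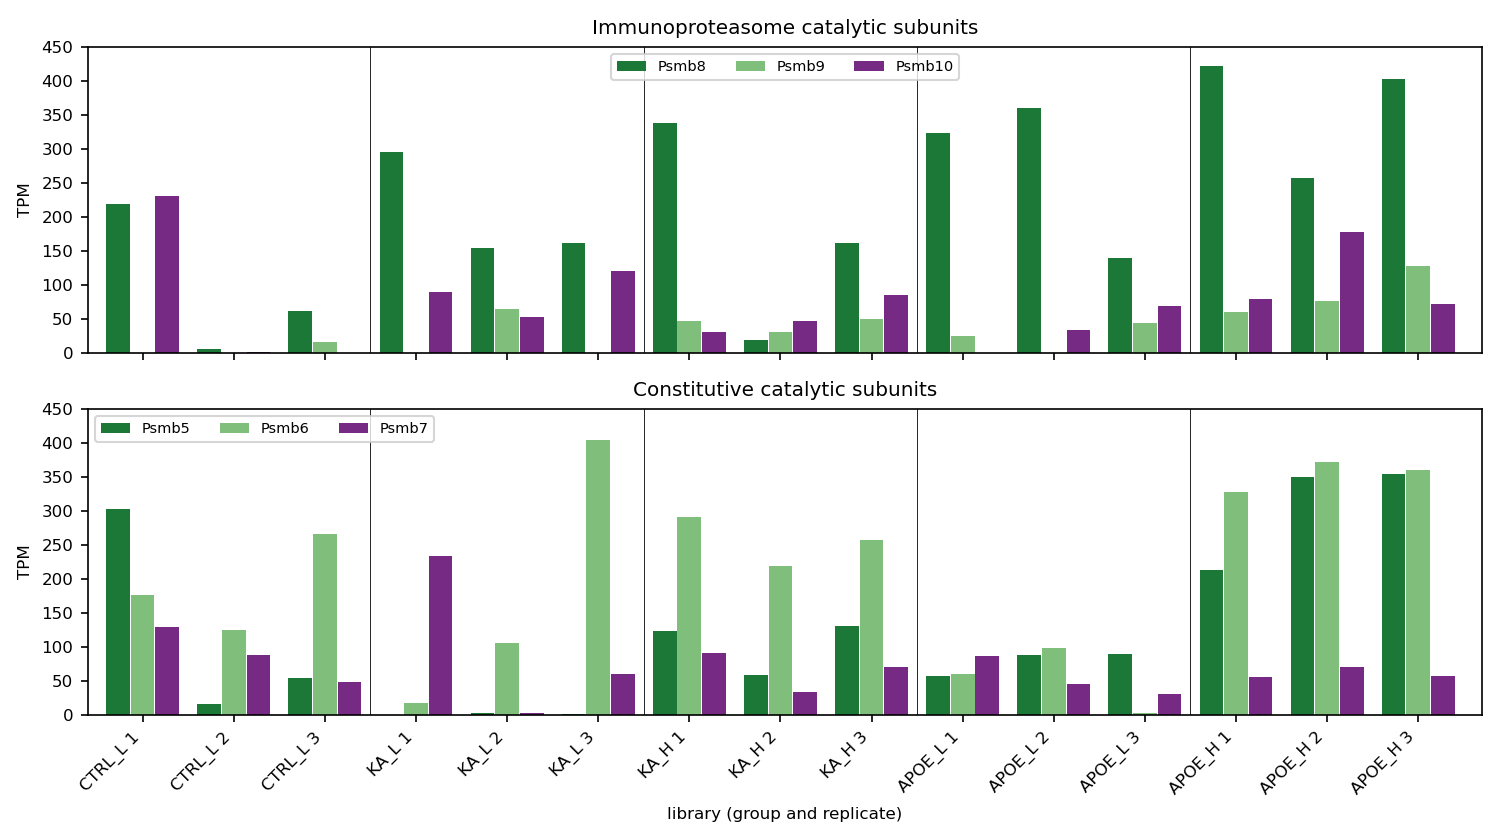
TPM of the immunoproteasome subunits (top) and of the constitutive subunits they replace (bottom, same colour for each counterpart) in each of the 15 libraries, by group and replicate. Psmb5 is near 0 in the 3 KA_L libraries (0 to 1.74 TPM), and the sum of the top 3 subunits is highest in the 3 APOE_H libraries (512 to 602 TPM).

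The proteasome activator PA28, encoded by Psme1 and Psme2, and the assembly chaperones made a list of 9 tested genes. Psmg1, an assembly chaperone, was listed at 0 in all APOE_L libraries and was 15.2, 39.1 and 23.9 TPM in APOE_H, where it was called higher (limma adjusted p = 0.0275, or 0.0587 to 0.0859 without any 1 of the 6 libraries). It was the 1 gene of the 9 called between APOE_H and APOE_L, against 4.70% of all tested entries called higher, and was not called when scaled to microglia markers (0.0570). Psmg1 was also listed at 0 in all KA_L libraries and was 27.01, 11.95 and 21.65 TPM in KA_H, where it was not called. In H against L averaged over KA and APOE, 3 of the 9 were called higher, against 7.72% of all tested entries. Psmg1 was called there whichever library was left out (log2 difference 4.33 to 4.66, limma adjusted p between 0.00558 and 0.0101). Psme1 stood at 64.4, 0 and 157 TPM in APOE_L and 241, 285 and 271 TPM in APOE_H, with no overlap and a log2 difference of 3.61 (SE 1.31, limma adjusted p = 0.114). Psme2 stood at 163, 186 and 277 TPM in APOE_L and 263, 269 and 334 TPM in APOE_H, which overlapped.

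Ubiquitin marks proteins for the proteasome. Ubb, a polyubiquitin gene, was 1465, 2130 and 1301 TPM in APOE_L and 4161, 4624 and 4182 TPM in APOE_H, with no overlap, and rose by 1.44 on the log2 scale (SE 0.37, limma adjusted p = 0.0306). Leaving out any 1 of those 6 libraries except APOE_L replicate 2 ended this call (0.0817 to 0.0971), as did no filter on low values (0.184), rescaling over protein-coding entries (0.0541) and scaling to microglia markers (log2 difference 0.90, limma adjusted p = 0.137).

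Set side by side, the 10 genes gave few calls and more cases without overlap. Between KA_H and CTRL_L, 4 of 10 were higher without overlap (B2m, H2-K1, H2-D1 and Psmb9), against 7.74% of all tested entries. Between KA_H and KA_L it was 3 of 10 (B2m, H2-D1 and Tapbp), against 10.5%. Between APOE_H and APOE_L it was 5 of 10 (H2-D1, H2-T23, Tapbp, Psmb9 and Psmb10), against 20.1%. Between APOE_H and KA_H it was 4 of 10 higher (H2-D1, Tap2, Tapbp and Psmb9), against 14.6%, and 1 of 10 lower (B2m), against 6.51%. Between APOE_L and KA_L, B2m alone was higher without overlap, against 3.57%. The comparisons share libraries and are not independent of each other.

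None of the 10 genes was called by limma in 4 comparisons. These were KA_L with CTRL_L (0.571% of all entries called), APOE_L with KA_L (0.0457%), APOE_H with KA_H (0.531%) and APOE with KA averaged over both letters (0.0171%). At an unadjusted p under 0.05 (limma) the counts in these comparisons were 0, 1, 4 and 2 of 10, where the shares of all entries were 11.1%, 7.84%, 8.63% and 8.23%. In KA_H against CTRL_L, KA_H against KA_L and APOE_H against APOE_L they were 5, 2 and 3 of 10, against 10.5%, 14.8% and 21.9%. Among these genes B2m was lower in APOE_H against both KA_H and APOE_L. The median log2 difference over the 10 genes was 0.77 for KA_L from CTRL_L, 1.35 for KA_H from CTRL_L and 0.32 for KA_H from KA_L. It was 0.59 for APOE_L from KA_L, 1.60 for APOE_H from KA_H and 1.83 for APOE_H from APOE_L. Over all tested entries the same medians were 0.00, 0.10, 0.11, -0.04, 0.25 and 0.54. Over the 14022 tested entries with a symbol they were -0.02, 0.15, 0.27, -0.03, 0.45 and 0.90.

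**Figure D4:**
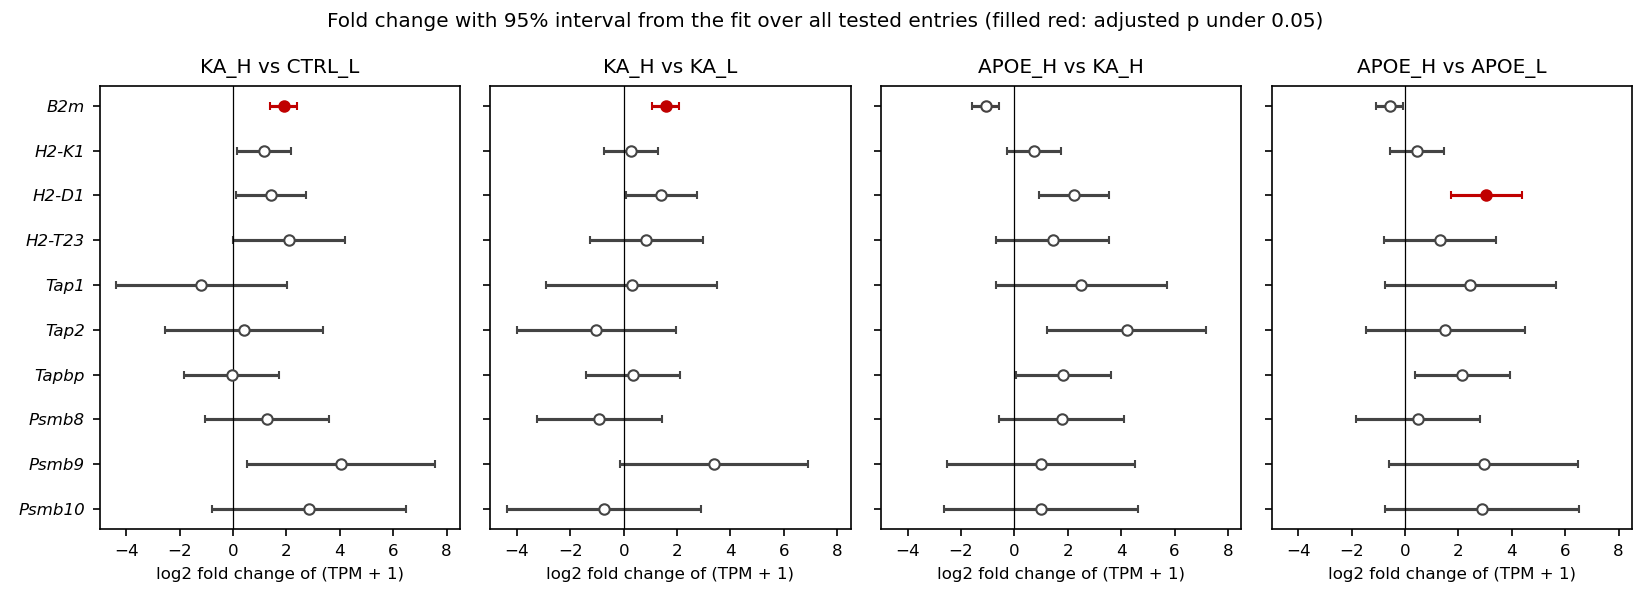
Log2 difference of TPM + 1 with its 95% interval from the limma fit for the 10 genes in 4 comparisons, where filled red points passed the adjusted p threshold of 0.05. B2m lies at 1.91 and 1.57 in the KA_H comparisons and at -1.07 against KA_H in APOE_H, while the other 9 genes all lie above 0 in APOE_H against KA_H.

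Other genes of the same pathway were taken from lists. Of 17 further class I heavy chain genes (such as H2-M3, H2-Q7 and Mr1), 11 were tested and 0 were called between any groups, with 2, 2, 1 and 4 of 11 at an unadjusted p under 0.05 in KA_H against CTRL_L, KA_H against KA_L, APOE_H against KA_H and APOE_H against APOE_L (limma), where the shares of all tested entries were 10.5%, 14.8%, 8.63% and 21.9%. All 11 had a positive log2 difference in APOE_H against APOE_L (median 1.92) and against KA_H (median 1.38). After quantile normalization or scaling to microglia markers it was 10 of 11 in both. Of all tested entries 60.3% and 57.3% were positive in these comparisons, and of those with a symbol 67.5% and 63.2%. The summed level of the 17 heavy chain genes was 278 to 876 TPM in APOE_H and at most 290 TPM in the other libraries. Averaged over both conditions, 2 of them, H2-T22 and Mr1, were called higher in H than in L (3.30 and 3.38, limma adjusted p = 0.0445 and 0.0122), against 7.72% of all tested entries. H2-T22 lost this call without any 1 of 10 of the 12 KA and APOE libraries (0.0630 to 0.104), all but KA_L replicate 2 and APOE_L replicate 1, and under 5 of the other alternatives (0.0513 to 0.118), whereas Mr1 kept it under every alternative run. All 11 were positive in that comparison, or 7 after quantile normalization and 8 when scaled to microglia markers.

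Nlrc5, the transactivator of class I genes, stood at 3.15, 0 and 43.3 TPM in APOE_L and 12.5, 13.1 and 46.9 TPM in APOE_H. Irf1, an interferon-responsive factor, was 5.06, 8.55 and 12.6 TPM in KA_H and 105, 27.6 and 49.1 TPM in APOE_H, with no overlap and a log2 difference of 2.53 (SE 1.27, limma adjusted p = 0.620). Neither was called between any groups. Over 21 such regulators the count called was 0 in each of the 6 comparisons of groups, with between 0 and 3 of 21 at an unadjusted p under 0.05 (limma), where the shares of all tested entries ran from 7.84% to 21.9%. In H against L averaged over KA and APOE, 1 of the 21 was called higher, against 7.72% of all tested entries.

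Genes induced by interferon formed a list of 24, all tested. In KA_H against CTRL_L and KA_L, 9 and 7 of 24 had an unadjusted p under 0.05 (limma), against 10.5% and 14.8% of all entries. For APOE_H against KA_H and APOE_L the counts were 2 and 9 of 24, against 8.63% and 21.9%. All of these were higher. In H against L averaged over KA and APOE, 3 of 24 were called higher, against 7.72% of all tested entries. In KA_H against CTRL_L 1 was called higher, against 0.314% of all tested entries: Ifitm3, a restriction factor against virus entry, which went from CTRL_L levels of 0.13, 57.2 and 54.4 TPM to KA_H levels of 1016, 934 and 1776 TPM, a rise of 6.27 (SE 1.09, limma adjusted p = 0.0252). This call ended without any 1 of the KA_H libraries (0.0642 to 0.0959), with no filter on low values (0.136) and with only the libraries compared fitted (0.345). In APOE_H against APOE_L 3 were called higher, against 4.70% of all tested entries, and none lower. Bst2, or tetherin, was 44.3, 0 and 28.9 TPM in APOE_L and 353, 227 and 336 TPM in APOE_H, a rise of 4.76 (SE 1.34, limma adjusted p = 0.0437). Iigp1, an immunity-related GTPase, was at most 0.06 TPM in APOE_L and 6.68, 11.9 and 66.5 TPM in APOE_H, a rise of 4.19 (limma adjusted p = 0.0266). Gbp3, a guanylate-binding protein, was at most 1.10 TPM in APOE_L and 4.68, 9.70 and 17.3 TPM in APOE_H, a rise of 3.01 (limma adjusted p = 0.0465). Each of these calls ended when single libraries were left out: Gbp3 with any of the 6 (0.0554 to 0.143), Bst2 with any but APOE_L replicate 1 (0.0515 to 0.160), and Iigp1 with any APOE_L library or APOE_H replicate 3 (0.0675 to 0.0978). All 3 also lost their call with no filter on low values (0.106 to 0.163), when scaled to microglia markers (0.0728 to 0.143) and with only the libraries compared fitted (0.0617 to 0.113), and the difference of Gbp3 went from 3.01 to 1.70 after quantile normalization (0.300). The interferon genes Ifng and Ifnb1 were listed at 0 in all 15 libraries.

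Across the 15 libraries the 10 genes did not vary as a block. The Pearson correlation of each with the mean of the other 9, on standardised log2(TPM + 1), was 0.90 for H2-D1, 0.89 for H2-K1 and 0.83 for H2-T23. It was 0.61 for both Psmb9 and Psmb8, 0.56 for Tapbp and 0.45 for Tap2, and it was lowest for Tap1 (0.33), Psmb10 (0.28) and B2m (0.28). Among pairs, H2-K1 and H2-T23 were the closest (0.89), and B2m and Tap1 the farthest (-0.14). Tap1 and Psmb9, which share the 225 bases shown above, had a correlation of 0.16. These are descriptions over 15 libraries that share groups and makeup. Tap1, Tap2, Psmb9 and Psmb10 reached 1 TPM in 11, 6, 10 and 12 of the 15 libraries. The part of such low values in their correlations was not tested. The genes outside the lists most like the mean of the 10 were Gm2a (0.90), Cd9 (0.88), Nop53 (0.88), Lgals3bp (0.87) and Grn (0.87). Gm2a, the activator of ganglioside breakdown in lysosomes, stood at 200 to 364 TPM in APOE_H and at most 101 TPM elsewhere. Grn, which encodes progranulin, stood at 713 to 1892 TPM in APOE_H and at most 524 TPM elsewhere.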

How the data were processed

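RNA was measured in 15 mouse brain libraries in 5 groups of 3. The authors deposited 1 table of TPM values, each library summing to the same total within rounding; the aligner was STAR and the build GRCh38, a human assembly, per the submitters' processing notes, while the identifiers were mouse Ensembl genes. The quantification tool, annotation and strand setting are not given in the sources used here, and depth is unknown. Symbols came by identifier from GENCODE M21 (GRCm38), which matched 52083 of 55416 Ensembl entries; 10548 assembled loci carry no symbol.

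The 17505 entries reaching 1 TPM in 3 or more libraries were tested on log2(TPM + 1), which understates changes of low genes, with limma 3.58.1 in R 4.3.3 (mean per group, eBayes with trend, 10 residual degrees of freedom). The Benjamini-Hochberg adjustment ran within each of 9 comparisons, and an adjusted p under 0.05 counts as called. An exact permutation test of 3 against 3 libraries cannot go below 0.1 and was not used. The scripts were tested on simulated data.

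The 10 genes and all lists were chosen with earlier results of these data known. Named beyond the 10 were list genes called in KA_H or APOE_H comparisons (up to 4 per list), the constitutive subunits, Psme1, Psme2, Nlrc5 and Irf1, and the 5 genes most like the mean of the 10; other list genes appear as examples without values, and some genes the rule names are not reported here. Alternatives covered the pseudocount, filters, scalings, a replicate block, the libraries fitted, and leaving out each library. Quantile normalization and scaling to microglia markers were added after the data were seen.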

Additional observations from a re-analysis of the deposited data

Results flagged for a closer look

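B2m was picked out because its difference between APOE and KA changed sign with the letter: the interaction on the log2(TPM + 1) scale was -2.14 (SE 0.34, limma adjusted p = 0.0425). The call ended without any 1 of 10 of the 12 libraries, with the replicate block (0.0562), with no filter on low values (0.531), when scaled to microglia markers (-2.40, 0.203) and after quantile normalization (-0.99, 0.453). It was higher in every APOE_L library than in every KA_L library and lower in every APOE_H library than in every KA_H library. The 16 microglia markers, at 505 to 806 TPM in KA_L and 761 to 876 TPM in APOE_L as a geometric mean, stood at 728 to 770 TPM in KA_H and 962 to 1585 TPM in APOE_H. Their part in the pattern was not tested.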

How the results depend on the processing

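The number of the 10 genes called stayed the same with a pseudocount of 0.1 and with a filter at 5 TPM, and H2-D1 was called higher in H than in L under every alternative run. With no filter on low values the count became 0 of 10 in KA_H against CTRL_L, KA_H against KA_L, APOE_H against APOE_L and the interaction, and the number of entries called became 50 (KA_L against CTRL_L), 33 (KA_H against CTRL_L), 100 (KA_H against KA_L), 13 (APOE_L against KA_L), 4 (APOE_H against KA_H), 538 (APOE_H against APOE_L), 8 (APOE against KA, averaged), 1048 (H against L, averaged) and 3 (interaction). The main counts in that order were 100, 66, 260, 8, 93, 1076, 3, 1782 and 8. Fitting only the libraries compared gave 0 of 10 in KA_H against CTRL_L and against KA_L, and 0, 3, 3, 1 and 0 entries in the first 5 of these comparisons, 6 for APOE against KA averaged and 18 for the interaction. Upper-quartile scaling gave 62, 136 and 393 entries in the first 3 comparisons, 6 for APOE against KA averaged and 24 for the interaction, and 1 of 10 genes in APOE_H against KA_H (B2m, -1.43, limma adjusted p = 0.0161). TPM rescaled over protein-coding entries gave 60 entries and 1 of 10 genes there (B2m, -1.19, 0.0299), and 2 of 10 in APOE_H against APOE_L, where B2m was then lower (-0.84, 0.0391). The filter at 5 TPM gave 43 entries in APOE_H against KA_H and 13 for the interaction. Quantile normalization gave 25 entries in APOE_H against KA_H, 9 for APOE against KA averaged and 0 for the interaction, hence 0 of 10 genes there. Scaling to microglia markers gave 0 of 10 genes and 125 entries in KA_H against KA_L, 52 and 571 entries in APOE_H against KA_H and APOE_L, and 0 entries and 0 of 10 genes for the interaction. Scaling moved the median log2 difference of all entries in APOE_H against APOE_L from 0.54 to -0.06 (quantile) or 0.97 (protein-coding), and the share of its calls that were higher from 76.4% to 57.5% (quantile) or 59.5% (microglia markers). In APOE_H against KA_H that share went from 67.7% to 53.1% (upper quartile), 40.0% (quantile) or 46.2% (microglia markers), and in H against L averaged from 75.9% to 57.6% (quantile) or 63.5% (microglia markers). In KA_L against CTRL_L it went from 30.0% to 41.9% (upper quartile) or 50% (microglia markers), and in APOE against KA averaged, over few calls, from 66.7% to 33.3% (upper quartile), 50% (protein-coding or microglia markers) or 22.2% (quantile). Among genes not called, the log2 difference changed sign for Tapbp in KA_H against CTRL_L (-0.05, then 0.53 with the upper quartile, 0.59 with quantile and 0.19 with microglia markers), Tap1 in KA_H against KA_L (0.30, then -0.48 with quantile) and, with microglia markers, H2-K1 and Psmb8 in APOE_H against APOE_L (-0.08 and -0.05). The causes were not tested.

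No pairing by replicate number was seen: correlations of same-numbered deviations from the group means ran from -0.03 to 0.04 over 30 pairs, with 0 over 0.1. For 0 of 15 libraries was the best match in every other group the library of the same number. These correlations cannot exclude a pairing, since spread particular to each library can hide it. With the replicate block, B2m's interaction was not called (0 of 10, limma adjusted p = 0.0562), and entries called became 19 (KA_H against CTRL_L), 4 (APOE_L against KA_L), 61 (APOE_H against KA_H) and 1 (interaction); among the other named genes the block ended the calls of Psmb5 in APOE_L against KA_L (0.0803), Gbp3 (0.0650) and Psmb6 (0.0638). Leaving out each library in turn, the count of the 10 genes ranged from 0 to 1 in KA_L against CTRL_L, APOE_H against APOE_L and the interaction, was 1 throughout in KA_H against CTRL_L and KA_L, ranged from 1 to 2 in H against L averaged (B2m added without APOE_L replicate 3 or APOE_H replicate 2, Psmb9 without KA_L replicate 2), and was 0 throughout in the other 3. Entries called ranged from 66 to 232 (KA_L against CTRL_L), 17 to 52 (KA_H against CTRL_L), 38 to 300 (KA_H against KA_L), 8 to 68 (APOE_L against KA_L), 50 to 120 (APOE_H against KA_H), 429 to 766 (APOE_H against APOE_L), 2 to 16 (APOE against KA averaged), 1187 to 1838 (H against L averaged) and 0 to 22 (interaction). TPM keep no depth, so what depth limits cannot be given.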

Other observations

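Of 9 genes for receptors that recognise class I molecules, 3 (Lilrb4a, Pirb and Klrd1) passed the filter on low values, and their limma test gave 0 calls between groups, with at most 1 of 3 at an unadjusted p under 0.05. Cd8a, which marks cytotoxic T cells, was at most 0.07 TPM outside APOE_H and 3.17, 0 and 5.15 TPM within it. Klrd1 encodes CD94, part of the receptor for the H2-T23 product, and was above 1 TPM in all 3 KA_H libraries (46.8, 11.3 and 13.9 TPM), in 1 library each of CTRL_L, KA_L and APOE_H, and in no APOE_L library.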
